A study of Mus musculus with 12 samples.

Results

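The 10 genes described here are S100a8, S100a9, Lcn2, Mmp8, Ngp, Camp, Retnlg, Ly6c2, Chil3 and Plac8, a set of neutrophil granule genes and of genes of recruited monocytes. They were taken by symbol, and each matched 1 Ensembl identifier in both deposited count tables, which list 35697 and 55637 identifiers. The samples were brain tissue of adult male C57BL/6J mice, 3 per group. The sham and TBI mice of the 2018 batch underwent the same surgery, and only the TBI mice received a controlled cortical impact (CCI), a blow to the exposed cortex with a 3 mm tip at 1.5 m/s, to a depth of 1.5 mm, for 100 ms. Both 2022 groups carried this injury. One of them was also given zileuton, an inhibitor of 5-lipoxygenase, in corn oil into the peritoneum at 10 mg/kg/day. The labels do not say whether the other 2022 mice received corn oil, and they are called TBI mice of 2022. Collection was at 7 days, although the source labels of 2 zileuton-treated mice give 8 and 9 days and their titles 7. The columns of the 2022 table carry the numbers 2, 3 and 6, which name the mice below and cannot be tied to those labels. Sham and TBI were compared within 2018, and TBI with and without zileuton within 2022. No value was tested across the batches, which were quantified differently. Nothing in the labels says that a group pooled animals.

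Neutrophils store antimicrobial proteins and proteases in granules that are filled in order during their maturation in bone marrow. Myeloperoxidase and elastase come first, lactoferrin, cathelicidin, neutrophilic granule protein and lipocalin 2 next, collagenase 8 later, and the calcium-binding pair S100A8 and S100A9 fills the cytosol. A mature cell that has left the marrow has switched off most early granule genes. Monocytes that enter injured tissue in the mouse carry high Ly6C on their surface and can express Chil3 and Plac8. Both cell types are rare in the uninjured brain. Lcn2 is also made by reactive astrocytes and endothelial cells, Chil3 and Plac8 are also found in neutrophils and their precursors, and Mmp8 can be made by other inflammatory cells, so no member marks 1 cell type by itself.

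On GRCm38 with GENCODE release M21, S100a8 (ENSMUSG00000056054, chr3:90668978-90670035) and S100a9 (ENSMUSG00000056071, chr3:90692632-90695721) were neighbours, 22596 bases apart. Ngp (ENSMUSG00000032484, chr9:110419747-110423012) and Camp (ENSMUSG00000038357, chr9:109847379-109849617), which encode cathelicidin-related granule proteins, lay 570129 bases apart. Mmp8 (ENSMUSG00000005800, chr9:7558456-7568485), Lcn2 (ENSMUSG00000026822, chr2:32384633-32388252) and Retnlg (ENSMUSG00000022651, chr16:48872621-48874496) complete the neutrophil genes. The monocyte genes were Ly6c2 (ENSMUSG00000022584, chr15:75108158-75111970), Chil3 (ENSMUSG00000040809, chr3:106147554-106167564) and Plac8 (ENSMUSG00000029322, chr5:100553725-100572245). All are protein-coding and none overlapped another annotated gene. The submitters' notes name GRCm39, so these positions are a guide to the loci and not the coordinates that were counted. Of the 50-base stretches in Ly6c2 transcripts, 13.9% also occur in Ly6c1, and 16.9% of those in Chil3 occur in Chil4. Reads of these pairs could therefore be divided or lost, and the values of Ly6c2 and Chil3 are uncertain to that extent.

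The start regions of S100a8, S100a9, Lcn2 and Mmp8, the neutrophil members with the most reads after TBI, and of Chil3, the member with the largest log2 fold change with zileuton, are printed here from 250 bases before to 30 bases after the RefSeq start on GRCm38.p6, each on the strand of its gene. They are chr3:90668821-90669100 (plus strand) for S100a8, chr3:90695692-90695971 (minus) for S100a9, chr2:32387710-32387989 (minus) for Lcn2, chr9:7558179-7558458 (plus) for Mmp8 and chr3:106167535-106167814 (minus) for Chil3. Capitals mark matches to TTNNGCAA or its reverse complement TTGCNNAA, letters like those bound by the myeloid C/EBP factors, and to TATAAA or TTTATA, letters like a TATA box.

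S100a8: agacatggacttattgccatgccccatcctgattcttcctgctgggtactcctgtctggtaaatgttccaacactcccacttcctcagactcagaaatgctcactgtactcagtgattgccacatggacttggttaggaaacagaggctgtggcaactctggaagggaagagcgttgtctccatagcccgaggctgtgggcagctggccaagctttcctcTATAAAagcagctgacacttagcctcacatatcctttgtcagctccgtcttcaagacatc

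S100a9: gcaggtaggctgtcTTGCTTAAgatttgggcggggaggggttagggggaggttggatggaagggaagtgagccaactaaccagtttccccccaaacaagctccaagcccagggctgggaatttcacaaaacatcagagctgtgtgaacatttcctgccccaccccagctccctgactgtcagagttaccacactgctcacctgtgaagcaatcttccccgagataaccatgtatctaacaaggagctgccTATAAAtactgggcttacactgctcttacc

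Lcn2: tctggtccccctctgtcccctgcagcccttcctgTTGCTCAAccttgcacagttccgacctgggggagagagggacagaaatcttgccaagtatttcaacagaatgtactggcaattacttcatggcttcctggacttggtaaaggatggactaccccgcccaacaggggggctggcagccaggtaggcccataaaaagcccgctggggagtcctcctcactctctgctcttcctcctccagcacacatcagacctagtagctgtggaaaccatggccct

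Mmp8: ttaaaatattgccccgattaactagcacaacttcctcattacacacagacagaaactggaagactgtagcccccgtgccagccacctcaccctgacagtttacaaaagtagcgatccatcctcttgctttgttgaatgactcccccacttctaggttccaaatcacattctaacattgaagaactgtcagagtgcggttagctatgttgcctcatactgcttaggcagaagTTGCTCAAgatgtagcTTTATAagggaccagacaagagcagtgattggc

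Chil3: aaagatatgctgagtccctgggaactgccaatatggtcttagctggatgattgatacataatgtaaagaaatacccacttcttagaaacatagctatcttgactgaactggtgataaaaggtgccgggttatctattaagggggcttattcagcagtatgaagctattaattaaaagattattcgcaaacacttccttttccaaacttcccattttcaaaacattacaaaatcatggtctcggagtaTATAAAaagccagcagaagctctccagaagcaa

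The C/EBP-like letters stood in S100a9, Lcn2 and Mmp8 here, and in 6 of the 10 members (Ngp, Retnlg and Plac8 are the others). Counted by window, as the shares below are, this was 6 of the members' 12 RefSeq windows of 300 bases. They stood in 10.8% of all 32851 promoter windows of that length. The TATA-like letters stood in S100a8, S100a9, Mmp8 and Chil3, which is 4 of the 12 windows, against 13.6% of all windows. The letters GAGGAA, like those bound by PU.1, were found in 5 of the 10 members. They stood in 6 of the 12 windows and in 28.3% of all windows. An NF-kB-like motif was found in 5 of the 10 members, in 5 of the 12 windows and in 50.8% of all windows. Both strands were read for each, and the motifs were allowed to overlap. These matches describe the letters alone.

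Each sample gave 1 library, with totals of 42929862 to 48684674 counts in 2018 and 27845562 to 35453257 in 2022. Gfap and Cd68, which mark astrocytes and phagocytes, rose with TBI in 2018 (by 3.72 and 3.62 on the log2 scale, edgeR adjusted p = 5.67e-06 and 1.29e-05), and Alox5, the gene of 5-lipoxygenase, by 1.63 (adjusted p = 0.00138). Neuronal genes were abundant in every library, with a sum over the 6 listed of 6650 to 7280 CPM (counts scaled to a total of 1000000 with edgeR's TMM factors) in sham and 4150 to 5270 in TBI of 2018, and of 4520 to 5290 without and 4590 to 5180 with zileuton in 2022. In 2018 between 62.3% and 64.4% of small counts were even, so both reads of a pair appear to be counted. There 6 counts, from 3 read pairs, are taken as the limit of detection. The share in 2022 was 29.2% to 30.8%, but those counts include fractions, which cannot be even, so the 2 shares are not alike. In 2022 the limit is 3 counts. The 2018 libraries held counts of both Xist (856 to 1155) and Ddx3y (2518 to 3008), against 1 to 6 for Xist in 2022. Xist does not match the label male, since males normally lack it. Whether each 2018 library held RNA of 1 mouse was not tested, and the mouse numbers of 2018 are those of the libraries. Choroid plexus RNA varied most by library, with Ttr at 45348, 556 and 2227 counts in sham mice, 57129, 61170 and 46393 in TBI mice of 2018, 102, 15060 and 27237 in TBI mice of 2022 and 41216, 37266 and 207 with zileuton.

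The members were higher after TBI. All 9 members that passed the expression filter rose from sham to TBI, by log2 fold changes of 2.05 to 6.83, and the 3 TBI mice lay above the 3 sham mice in each of them. Of the 19536 genes tested, 28.0% passed an adjusted p under 0.05 in either direction and 16.8% did so as higher in TBI, and 24.6% had TBI mice that all lay above the sham mice. The median log2 fold change of the 9 members was 5.88, and that of all genes tested 0.02. The filter asks for counts in at least 1 group, so the members that passed it are not the whole set. Camp, the member that did not pass, had counts in TBI alone. Here and below, more cells of a type and more RNA per cell cannot be told apart, since the tissue was measured whole.

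**Figure D1:**
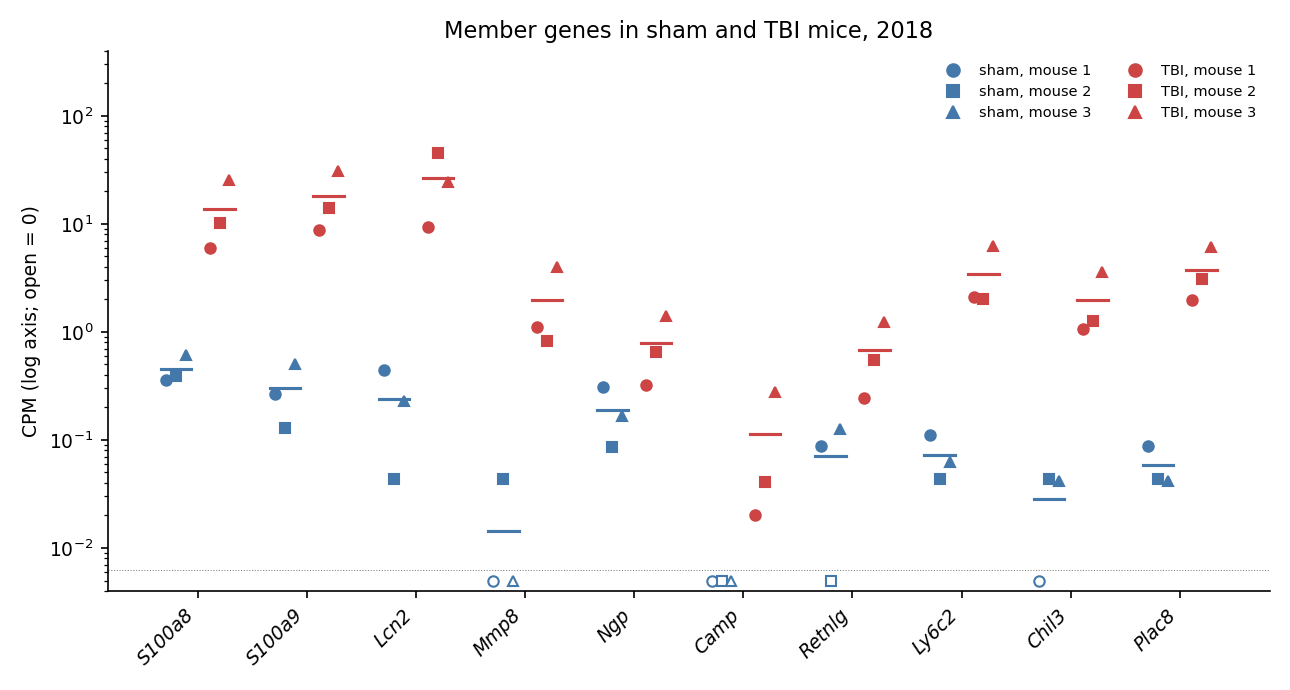
CPM (log axis) of the 10 genes in 3 sham mice (blue) and 3 TBI mice (red) of 2018. Points are mice, bars are group means, and open symbols below the dotted line are counts of 0. In each gene the TBI mice lie above the sham mice, and mouse 3 is the highest TBI mouse in 9 of the 10 genes, Lcn2 being the exception.

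S100a8 and S100a9 encode the subunits of calprotectin, which binds calcium, zinc and manganese and signals through Toll-like receptor 4 when released. S100a8 was counted 16, 18 and 29 times in the sham mice and 294, 496 and 1093 times in the TBI mice. It rose 30.4-fold, from 0.452 ± 0.139 to 13.8 ± 10.2 CPM (mean ± SD of 3 mice). This is 4.92 on the log2 scale, with a standard error of 0.573 (edgeR adjusted p = 0.00038). S100a9 was counted 12, 6 and 24 times in sham and 434, 685 and 1341 times in TBI. Its log2 fold change was 5.88 (SE 0.595, adjusted p = 0.000168), from 0.3 to 18.0 CPM. Both genes followed the same order of TBI mice, lowest in mouse 1 and highest in mouse 3. Scaled by length, the deposited FPKM of S100a9 was 1.63 to 1.96 times that of S100a8 in the TBI mice, and 0.443 to 1.10 times in sham mice, where both rest on few reads.

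Lcn2 encodes lipocalin 2, which withholds iron from bacteria by binding their siderophores. Its counts were 20, 2 and 11 in sham and 457, 2209 and 1053 in TBI. It rose from 0.240 ± 0.200 to 26.4 ± 18.1 CPM (SD, n = 3), and its log2 fold change was 6.77 (SE 0.738, adjusted p = 0.000257). Lcn2 was the member in which TBI mouse 2, and not mouse 3, was highest, and its FPKM relative to S100a9 ran from 0.156 in mouse 3 to 0.642 in mouse 2.

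Mmp8 encodes the collagenase of neutrophil granules. It was counted 0, 2 and 0 times in sham and 54, 40 and 170 times in TBI. The ratio of pooled reads was 130, with an exact 95% interval of 22.9 to 5170 that covers counting error only, since the sham total is 1 read pair. The fitted log2 fold change was 6.83 (SE 1.04, adjusted p = 0.00161). Among its close relatives that were tested, Mmp12 of macrophages rose (log2 fold change 4.84, adjusted p = 0.00076), and Mmp13, the other main rodent collagenase, rose with a very wide spread, from 0, 10 and 0 counts to 220, 12 and 2634 (adjusted p = 0.0177). Mmp3, with no count in sham, had 18, 17 and 85 in TBI, at least 6.91-fold higher against 6 counts per library.

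Ngp, Retnlg and Camp had the lowest counts after TBI among the neutrophil members. Ngp was counted 14, 4 and 8 times in sham and 16, 32 and 60 times in TBI, so the groups were only 2 counts apart at their nearest. Its log2 fold change was 2.05 (SE 0.655, adjusted p = 0.0459), and the call was lost when 5 of the 6 mice were left out in turn, with adjusted p up to 0.175. Retnlg, a resistin-like protein of neutrophils, was counted 4, 0 and 6 times in sham and 12, 27 and 53 times in TBI, a log2 fold change of 3.18 (SE 0.881, adjusted p = 0.0267). Its call was lost without 4 of the 6 mice (adjusted p up to 0.0987), namely each sham mouse and TBI mouse 3. Camp, the gene of the antimicrobial peptide CRAMP, was counted 0, 0 and 0 times in sham and 1, 2 and 12 times in TBI. The mean lies under the limit of 6 counts, so no fold is given, and the two-sided exact permutation test over 3 against 3 mice gave its smallest possible p, 0.1.

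The monocyte genes rose together in the same mice. Ly6c2, one of the surface proteins recognised as Ly6C, was counted 5, 2 and 3 times in sham and 104, 99 and 270 times in TBI, 0.0724 ± 0.0348 against 3.47 ± 2.42 CPM (SD, n = 3). The log2 difference came to 5.53 (SE 0.636, adjusted p = 0.000353). Ly6c1, its near copy in endothelial cells, lay at 1165 to 1625 counts in sham and 1789 to 2470 in TBI and rose by 0.58 (SE 0.121, adjusted p = 0.00774). Chil3, the chitinase-like lectin Ym1, was counted 0, 2 and 2 times in sham and 52, 62 and 154 times in TBI, a pooled ratio of 66.0 with an exact 95% interval of 17.9 to 550 and a fitted log2 fold change of 5.97 (SE 0.794, adjusted p = 0.00079). Plac8, a small cysteine-rich protein of myeloid and other cells, was counted 4, 2 and 2 times in sham and 98, 151 and 264 times in TBI, a log2 fold change of 5.95 (SE 0.583, adjusted p = 0.000142).

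By length-scaled level after TBI the order of mean FPKM was S100a9 (35.0 ± 22.2, SD, n = 3), S100a8 (20.2 ± 14.7), Lcn2 (10.3 ± 7.20), Plac8 (2.38 ± 1.34), Ly6c2 (1.28 ± 0.880), Chil3 (1.22 ± 0.851), Retnlg (1.16 ± 0.847), Mmp8 (0.813 ± 0.709), Ngp (0.656 ± 0.444) and Camp (0.151 ± 0.190). Neighbours in this order differed by less than the SD of the higher one, except that Lcn2 lay above Plac8, and Ngp above Camp, by more. TBI mouse 3 was highest in 9 of the 10 members, and it was the highest TBI mouse in 37.7% of the genes tested. Without that mouse the log2 fold changes of the 7 members other than Ngp and Retnlg were 4.15 or more and their calls held.

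Markers that define the cell types were unequal. In the counts over gene lists here and below for TBI, rose and fell mean an adjusted p under 0.05. Of all genes tested, 16.8% rose by that rule. Among other neutrophil granule genes, 7 of 10 tested rose and none fell, with a median log2 fold change of 2.26 beside 0.02 for all genes. Those with the most reads are not particular to neutrophils: Lyz2, the lysozyme of myeloid cells, rose by 6.44 (adjusted p = 7.52e-06), Adam8, a sheddase, by 3.30 (adjusted p = 0.000173), Chil1, a chitinase-like protein that reactive astrocytes also make, by 2.45 (adjusted p = 0.00105) and Pglyrp1, a peptidoglycan-binding protein, by 1.29 (adjusted p = 0.00312). The early granule genes Mpo and Elane were near 0. Mpo had 0, 0 and 2 counts in sham and 5, 0 and 10 in TBI, and Elane 0, 0 and 2 against 0, 2 and 2. Prtn3, the gene of proteinase 3, also an early granule enzyme and named after its values were seen, was at 1.13, 1.23 and 1.30 CPM in sham and 1.04, 1.01 and 1.04 in TBI (log2 fold change −0.25, SE 0.258, adjusted p = 0.52). Ltf, the lactoferrin gene, had 4, 14 and 6 against 8, 10 and 38 counts (log2 fold change 1.24, adjusted p = 0.277). Ly6g, the surface marker used to define mouse neutrophils, had no count in sham and 0, 2 and 6 in TBI, within the limit of detection.

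Receptors of mature neutrophils were more abundant. Cxcr2, which binds the neutrophil chemokines, had no count in sham and 46, 103 and 140 in TBI, at least 16.2-fold higher against 6 counts per library (adjusted p = 0.00087). Csf3r, the receptor of granulocyte colony-stimulating factor, rose from 178, 173 and 183 to 1512, 1777 and 1591 counts (log2 fold change 3.17, adjusted p = 2.35e-06), in every TBI mouse to a like level, unlike S100a8. Of 14 tested neutrophil surface and cytosol genes 12 rose and none fell. Hdc, the histamine-forming enzyme that mast cells also express, rose by 2.01 (adjusted p = 0.00101), Asprv1, a protease, by 0.85 (adjusted p = 0.0412), and G0s2, a lipase inhibitor, had a log2 fold change of 0.24 (adjusted p = 0.391). The list's sum ran from 11.8 to 13.8 CPM in sham and from 51.7 to 77.4 in TBI.

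**Figure D2:**
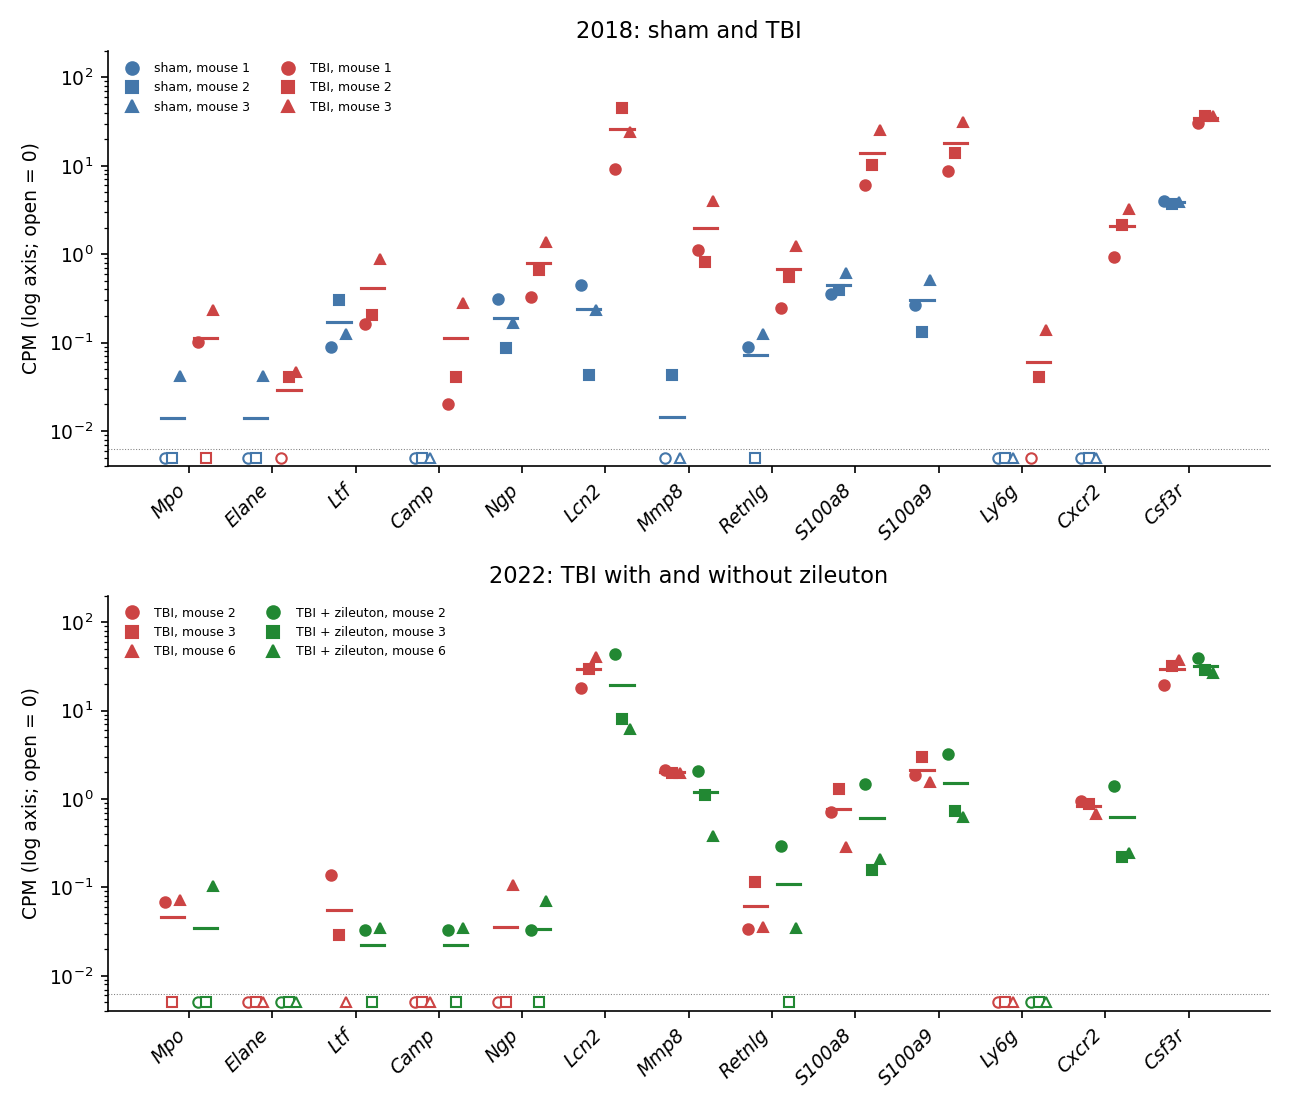
CPM (log axis) of early and later granule genes, S100 genes and neutrophil surface genes in each mouse, 2018 above and 2022 below. Points are mice, bars group means, and open symbols below the dotted line counts of 0. Mpo, Elane, Camp and Ly6g lie below 1 CPM in every mouse of both batches, and Csf3r lies above 10 CPM in every injured mouse.

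Monocyte genes outside the members rose in 10 of 14 tested, and 1 fell. Ccr2, the receptor that brings monocytes out of the marrow, went from 14, 6 and 20 to 162, 239 and 317 counts (log2 fold change 4.16, adjusted p = 0.000243), and F13a1, a coagulation factor chain made by monocytes and macrophages, from 130, 166 and 143 to 844, 659 and 1104 (2.57, adjusted p = 0.000106). Csf1r, which microglia share, rose by 1.81 (adjusted p = 1.19e-05) and Vcan, a matrix proteoglycan, by 0.67 (adjusted p = 0.00115). Nr4a1, an immediate early gene that neurons also express, fell by 0.88 (adjusted p = 0.000623), and Ace had a log2 fold change of 0.42 (adjusted p = 0.385).

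The chemokines and cytokines that draw these cells rose as well, 11 of 11 tested, with a median log2 fold change of 4.89, or 4.37 with Cxcl2 and Cxcl3, at 0 in sham, set at their lower bounds. Cxcl5, a ligand of Cxcr2, went from 22, 4 and 10 to 613, 1057 and 558 counts (log2 fold change 5.90, adjusted p = 4.14e-05), and Ccl12, a ligand of Ccr2, from 23, 2 and 32 to 368, 472 and 461 (4.49, adjusted p = 0.000513). Il1b rose by 4.37 (adjusted p = 0.00137) and Csf1, a growth factor of macrophages, by 1.74 (adjusted p = 2.43e-05). The granulocyte factors Csf3 and Il17a, whose values were singled out after they were seen, had at most 4 counts and 0 counts in any library of 2018.

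Receptors and inhibitors of the members' products were tested in full, and 8 of 13 rose and none fell. Tlr2 rose by 4.26 (adjusted p = 7.17e-06), Tlr4, the calprotectin receptor, by 1.77 (adjusted p = 0.00115), and Cd33 and Cd36, both linked to S100 proteins, by 2.13 and 1.08 (adjusted p = 1.06e-05 and 0.00738). Fpr2, which senses cathelicidin, had 0, 0 and 2 counts in sham and 31, 18 and 36 in TBI (5.17, adjusted p = 0.00264). Ager, another S100 receptor, had a log2 fold change of 1.37 (adjusted p = 0.0757). P2rx7, the receptor of extracellular ATP, rose by 1.35 (adjusted p = 6.37e-05). The receptor of lipocalin 2, Slc22a17, had 30078, 29053 and 32572 counts in sham and 28230, 30418 and 26101 in TBI (−0.14, adjusted p = 0.221), and Lrp2, its other receptor, a log2 fold change of 0.83 (adjusted p = 0.148). Among inhibitors of metalloproteinases Timp1 rose by 3.46 (adjusted p = 0.00179) and Timp2 by 0.37 (adjusted p = 0.0436), and Timp3 and Reck stood at log2 values of 0.23 and 0.16 (adjusted p = 0.219 and 0.596).

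Among close relatives of the members 13 of 19 tested rose and none fell, with a median of 1.14. The S100 genes of glia and fibroblasts had smaller log2 fold changes than S100a8 and S100a9. S100a11 rose by 2.85 (adjusted p = 0.000149), S100a6 by 2.19 (adjusted p = 8.12e-05), S100a16 by 1.16 (adjusted p = 8.97e-05), S100a13 by 1.14 (adjusted p = 0.00016), S100a1 by 0.91 (adjusted p = 7.02e-05) and S100b by 0.63 (adjusted p = 0.000488). S100a10 and S100a3 came to 0.55 and 1.46 (adjusted p = 0.101 and 0.218). Of the Ly6 family Ly6a rose by 1.52 (adjusted p = 0.000556) and Ly6e by 1.04 (adjusted p = 0.000569). Retn, Chia1, Plac9a and Ptgds, relatives of Retnlg, Chil3, Plac8 in name, and Lcn2, had log2 values of 0.83, 0.03, 0.57 and −0.46 (adjusted p = 0.22, 0.975, 0.165 and 0.212). S100a4 had no count in sham and 4, 11 and 20 in TBI in the 2018 table, but 273 to 749 counts in every library of 2022. The cause of this gap between the tables was not tested.

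Genes of other cell types also differed between these sham and TBI mice. All 8 genes of homeostatic microglia, 9 of 10 genes of activated microglia and macrophages and 10 of 10 genes of reactive astrocytes rose, with medians of 1.02, 5.06 and 3.36. Of 6 red blood cell genes 4 fell and none rose, and their sum was 469 to 560 CPM in sham and 300.0 to 423 in TBI. The sum of choroid plexus genes was 19.2 to 1060 CPM in sham and 1140 to 1320 in TBI, and 1 of 5 rose. Of 5 genes of meninges and fibroblasts 4 rose and none fell, and their sum was 90.3 to 96.9 CPM in sham and 125 to 521 in TBI. As in most members, TBI mouse 3 was highest in Col1a1, the gene of a fibrillar collagen chain, with 117, 35.2 and 168 CPM in TBI mice 1, 2 and 3. Of 8 endothelial genes 6 rose, with a sum of 76.2 to 105 CPM in sham and 107 to 180 in TBI. Of the 6 neuronal genes 3 fell and none rose. Mast cell genes summed to 0.173 to 0.467 CPM in sham and 1.79 to 7.92 in TBI. Their part in the members' values was not tested.

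Zileuton did not move any member past the adjusted threshold. None of the 7 members tested, and none of the 17363 genes (0.0%), had an adjusted p under 0.05 in edgeR, and 1186 genes (6.83%) had an unadjusted p under 0.05, 3.9% as lower. At that unadjusted threshold, the one the study's methods set, 2 of the 7 members were lower with zileuton, Ly6c2 and Chil3, and these were also the 2 whose groups did not overlap, against 7.04% of all genes tested with every zileuton mouse below every TBI mouse. All 7 log2 fold changes were below 0, as were 49.3% of those of all genes, and their median was −0.75 against 0. DESeq2, which called 26 genes at its adjusted threshold, called no member.

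**Figure D3:**
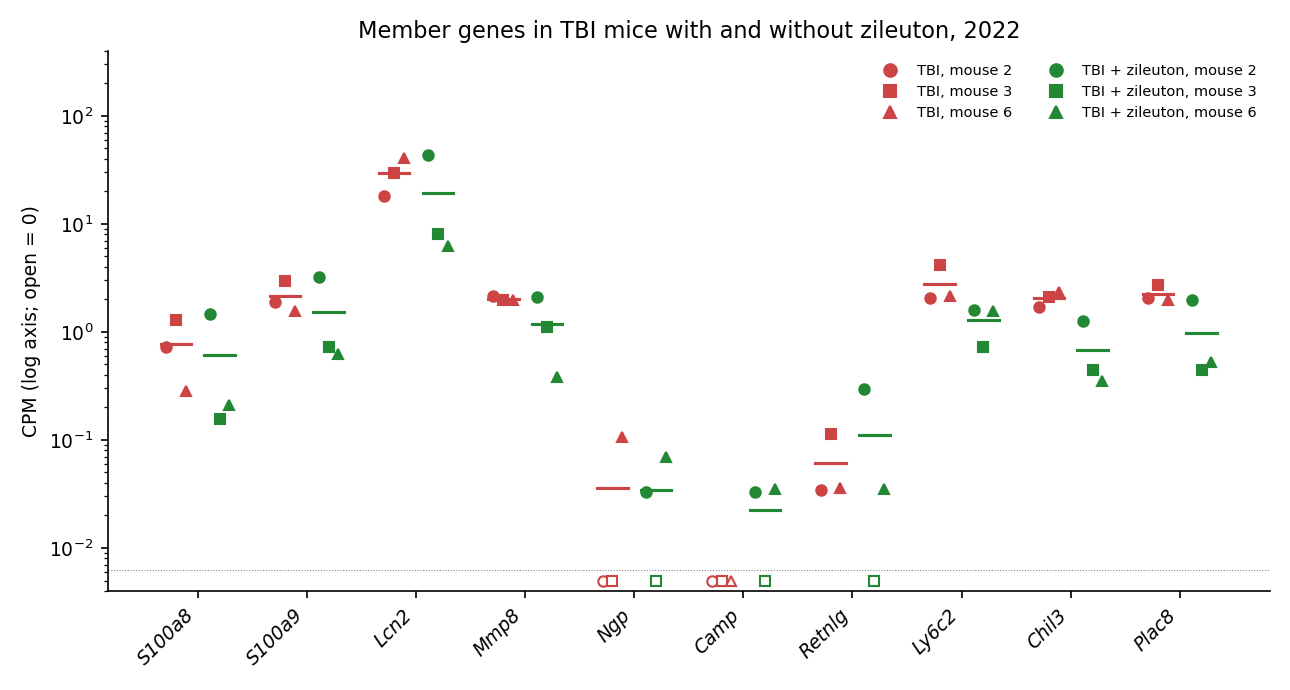
CPM (log axis) of the 10 genes in 3 TBI mice (red) and 3 zileuton-treated TBI mice (green) of 2022, with symbols giving the column number. Bars are group means and open symbols are counts of 0. Zileuton mouse 2 lies within or above the red points for S100a8, S100a9, Lcn2, Mmp8 and Plac8, and mice 3 and 6 lie below them in the 7 genes tested.

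The 3 monocyte members had log2 fold changes of −1.59 to −1.11 and the 4 neutrophil members tested −0.75 to −0.33, and the difference between these sets was not tested. Without zileuton mouse 2 the sets overlapped, with S100a8 at −2.06, Lcn2 at −2.06, S100a9 at −1.66 and Mmp8 at −1.43. Ly6c2, at −1.29, then lay above these 4, while Chil3 at −2.37 and Plac8 at −2.22 stayed below them. Chil3 was counted 50, 74 and 66 times in TBI mice 2, 3 and 6 and 38, 14 and 10 times in zileuton mice 2, 3 and 6. Its level was 2.06 ± 0.323 CPM without and 0.679 ± 0.496 with zileuton (SD, n = 3), or −1.59 in log2 fold change (SE 0.458, 95% interval −2.65 to −0.54, edgeR unadjusted p = 0.00808, adjusted p = 0.713). Every zileuton mouse lay below every TBI mouse. Ly6c2 was counted 60, 144 and 60 times in TBI and 48, 23 and 45 times with zileuton, 2.77 ± 1.17 and 1.29 ± 0.491 CPM. Its log2 fold change was −1.11 (SE 0.395, 95% interval −2.02 to −0.20, edgeR unadjusted p = 0.0223, adjusted p = 0.713), again without overlap. Ly6c1, the near copy, had a log2 fold change of −0.07 (SE 0.104, adjusted p = 0.889). Plac8 was counted 60, 96 and 55 times in TBI and 60, 14 and 15 times with zileuton, and mouse 2 alone lay within the TBI range (log2 fold change −1.20, 95% interval −2.42 to 0.02, edgeR unadjusted p = 0.0526, adjusted p = 0.713).

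The neutrophil members overlapped between the groups. S100a8 was counted 21, 45 and 8 times in TBI and 45, 5 and 6 times with zileuton, a log2 fold change of −0.33 with a 95% interval of −2.27 to 1.61 (edgeR unadjusted p = 0.706). S100a9 was counted 55, 104 and 44 times in TBI and 98, 23 and 18 times with zileuton (−0.50, interval −1.88 to 0.89, unadjusted p = 0.435). Lcn2 was counted 529, 1042 and 1147 times in TBI and 1332, 254 and 178 times with zileuton (−0.61, interval −2.17 to 0.94, unadjusted p = 0.39). In these 3 genes zileuton mouse 2 was above every TBI mouse, and mice 3 and 6 were below every TBI mouse. Mmp8 was steady in TBI at 62, 69 and 55 counts and spread with zileuton at 64, 35 and 11 (−0.75, interval −1.88 to 0.38, unadjusted p = 0.164). The lower ends of these 4 intervals lay at −1.88 or below and the upper ends above 0.

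Ngp, Camp and Retnlg did not pass the expression filter. Ngp had 0, 0 and 3 counts in TBI and 1, 0 and 2 with zileuton, Camp none in TBI and 1, 0 and 1 with zileuton, and Retnlg 1, 4 and 1 against 9, 0 and 1. Group means of Ngp and Camp lie at or under the limit of 3 counts. Two-sided exact permutation tests over 3 against 3 mice gave p = 1.00, 0.4 and 0.9, where 0.1 is the smallest they can give.

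**Figure D4:**
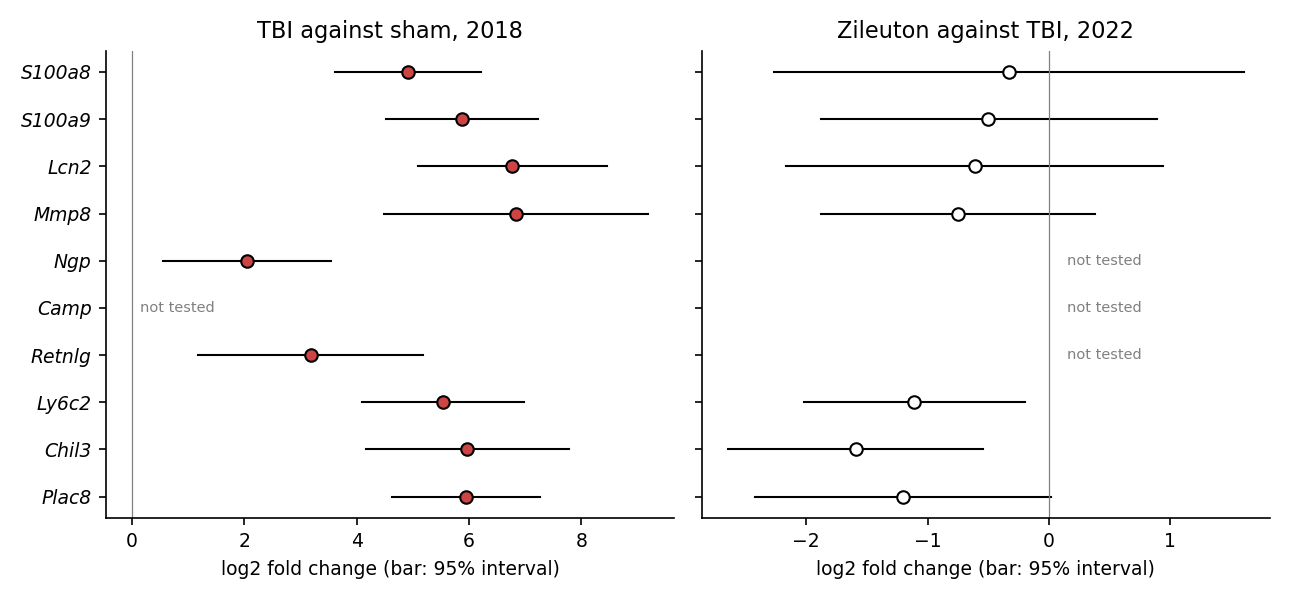
Log2 fold changes of the members (points) with 95% intervals (bars) from edgeR, TBI against sham on the left and zileuton against TBI on the right, on axes of different range. Filled points have an adjusted p under 0.05. All 9 tested members lie right of 0 on the left panel, and on the right the intervals of Ly6c2 and Chil3 alone lie below 0.

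The number of members past the unadjusted threshold depended on single mice. Zileuton mouse 2 was the highest zileuton mouse in 8 of the 10 members and in 36.7% of the genes tested. It was below the TBI range in 2 of the 7 tested members, within it in 2 and above it in 3. Of all genes tested, 27.6% were below that range in mouse 2 and 24.1% above it. Mice 3 and 6 were each below the TBI range in 7 of 7, and in 24.5% and 26.7% of all genes tested. Without zileuton mouse 2, all 7 members had an unadjusted p under 0.05 as lower, with log2 fold changes of −2.37 for Chil3 and −2.06 for Lcn2, and adjusted p of 0.298 or more. Without TBI mouse 3 or without zileuton mouse 3, 1 member did. Leaving out 2 libraries low in choroid plexus genes together, TBI mouse 2 and zileuton mouse 6, left 2. The number of all genes past that threshold also changed with the mouse left out, over the range given in the closing section. The share of the full fit is therefore not the background for these counts of members.

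The mature neutrophil receptor Cxcr2 took the same places, with 28, 31 and 19 counts in TBI and 43, 7 and 7 with zileuton (log2 fold change −0.43, unadjusted p = 0.542, adjusted p = 0.892), whereas Csf3r had 574, 1130 and 1047 against 1211, 913 and 771 (0.09, adjusted p = 0.935). Ly6g and Elane had no count in any library of 2022, which allows up to 3 counts each, and Mpo and Ltf had at most 4. Hdc had a log2 fold change of 0.71 (adjusted p = 0.713) and G0s2 of 0.05 (adjusted p = 0.96). Of the granule genes outside the members, Lyz2 had a log2 fold change of −0.49 (adjusted p = 0.8), Adam8 of −0.29 (adjusted p = 0.834), Pglyrp1 of 0.10 (adjusted p = 0.903) and Chil1 of 0.14 (adjusted p = 0.967). Chil1 was highest in zileuton mouse 2, with 4171 counts against 998 and 535. The Lcn2 TPM was 3.90 to 10.6 times that of S100a9 in TBI mice and 3.91 to 5.44 times with zileuton, and S100a9 was 2.11 to 4.95 and 1.96 to 4.18 times S100a8.

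Of 12 other monocyte genes tested, 0 had an unadjusted p under 0.05 in either direction, beside 6.83% of all genes tested. Whether these 12 differ from Chil3 and Ly6c2 was not tested. Ccr2 had 58, 70 and 103 counts in TBI and 100, 56 and 31 with zileuton (log2 fold change −0.32, unadjusted p = 0.48, adjusted p = 0.872), and F13a1 306, 516 and 534 against 644, 355 and 351 (0.01, adjusted p = 0.997). The list median was −0.04. Csf1r, Ace, Nr4a1 and Vcan had log2 values of 0.03, 0.60, 0.62 and 0.20 (adjusted p = 0.977, 0.733, 0.735 and 0.801).

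Among the attractants 3 of 9 tested were lower at an unadjusted p under 0.05, beside 3.9% of all genes tested. The list median was −0.53. Ccl2, the main ligand of Ccr2, had 130, 129 and 75 counts in TBI and 80, 43 and 26 with zileuton (log2 fold change −1.14, unadjusted p = 0.0176, adjusted p = 0.713), and Ccl12 571, 291 and 125 against 168, 101 and 97 (−1.42, unadjusted p = 0.0206, adjusted p = 0.713). Ccl7, named after its values were seen, had 37, 30 and 16 against 11, 1 and 4 (−2.32, unadjusted p = 0.00714, adjusted p = 0.713). The neutrophil attractant Cxcl5 had 86, 117 and 91 counts in TBI and 208, 52 and 31 with zileuton (0.00, unadjusted p = 0.996), highest in zileuton mouse 2. Csf1 had a log2 fold change of −0.14 (adjusted p = 0.819).

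Of the receptors and inhibitors Timp3 was higher with zileuton (log2 fold change 0.23, unadjusted p = 0.0197, adjusted p = 0.713) and the other 11 tested had unadjusted p of 0.0785 or more, Tlr4 at −0.26 and Tlr2 at −0.17 among them. Of 19 close relatives tested, Ly6a had a log2 fold change of −0.51 (unadjusted p = 0.00062) and Ly6e of −0.31 (unadjusted p = 0.0289), both with adjusted p = 0.713. Of the other lists, 9 of 10 genes of activated microglia and macrophages had log2 fold changes below 0 with a median of −0.30, and Spp1, a secreted matrix protein of macrophages, was lower without overlap (−1.20, unadjusted p = 0.00727, adjusted p = 0.713). Reactive astrocyte genes had a median of −0.14. Red blood cell genes were lower at an unadjusted p under 0.05 in 5 of 6, beside 3.9% of all genes tested. Their sums, 410 to 544 CPM in TBI and 329 to 373 with zileuton, did not overlap. Choroid plexus genes summed to 11.7 to 1040 CPM in TBI and 11.9 to 1450 with zileuton. Their part in the members' values was not tested.

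**Figure D5:**
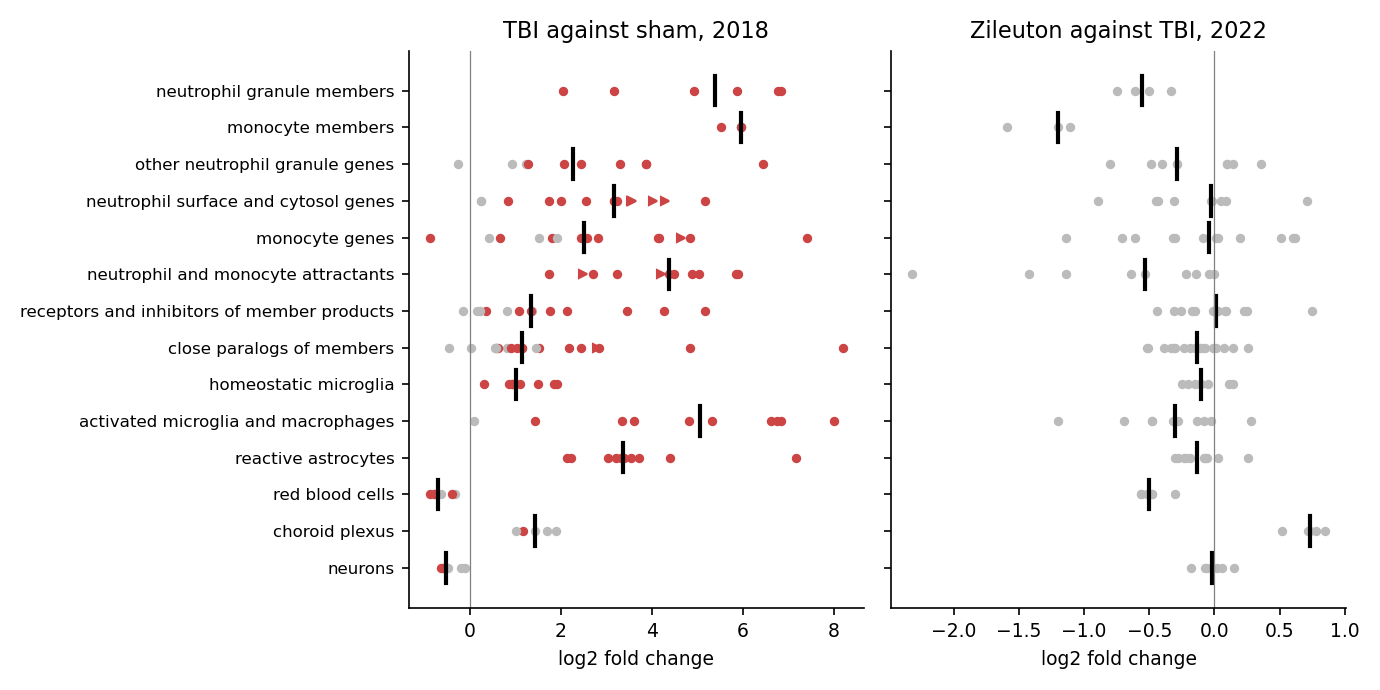
Log2 fold changes of the tested genes of each list (points), TBI against sham on the left and zileuton against TBI on the right, on axes of different range. Red points have an adjusted p under 0.05, triangles are lower bounds for genes at 0 in all sham mice, and black bars are list medians. The members lie right of 0 on the left panel, and on the right no point is red and the monocyte members have the lowest median, −1.20.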

How the data were processed

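RNA of brain tissue from 4 groups of 3 mice was sequenced in 2 batches. For 2018 the authors deposited raw counts, whole numbers per Ensembl gene, and FPKM. For 2022 the authors deposited estimated counts, of which 13.7% were not whole, and TPM. The submitters' processing notes name HISAT2, Subread, featureCounts, DESeq2 and GRCm39. The strand setting and the role of each tool are not given in the sources used here. Groups came from the labels, and nothing shows that libraries of a group were technical repeats. No column of per-sample values was left out.

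Estimated counts were rounded, although the plan assumed raw counts. Counts were fitted with edgeR 4.0.16 in R 4.3.3 (TMM, filterByExpr, glmQLFit, glmQLFTest) in each batch alone, with Benjamini-Hochberg adjustment over all genes tested. The standard error is the log2 fold change over the square root of F. The study compared pairs of groups by a two-sided t-test at an unadjusted p under 0.05. For zileuton the unadjusted p of edgeR is reported at the same cutoff. CPM are on TMM-scaled totals. Exact intervals are Clopper-Pearson and cover counting error only. On simulated counts the test called 70.4% of 2-fold and 86.9% of 4-fold changes for TBI against sham (5.49% false among the calls), and 76.8% and 92.6% for zileuton (11.5% false). Replicate numbers did not pair the mice: deviations of like-numbered mice correlated at −0.0944 to −0.0228 in 2018 and −0.282 to 0.0628 in 2022.

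The members and all gene lists were chosen with earlier results of these data known. Genes were named by rule: the members, 8 defining neutrophil and monocyte genes, all tested receptors, inhibitors and close relatives, label checks, and up to 4 tested genes of highest mean CPM from other lists. Promoters came from RefSeq, where all 10 members matched, and positions from GENCODE M21. Alternatives were other scalings, filters, DESeq2 1.42.0, limma 3.58.1 on log2(FPKM or TPM + 1 or 0.1), a length correction, halved counts, a replicate block and leaving out each mouse. Figures were drawn with matplotlib 3.10.9.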

Additional observations from a re-analysis of the deposited data

How the results depend on the processing

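For TBI against sham, between 6 and 9 members were called under every alternative, with no change of direction, and 3713 to 6017 genes. Ngp, Retnlg and Mmp8 are the members whose call was lost under 1 or more alternatives, Mmp8 only with limma on log2(value + 1) without a filter (log2 fold change 0.78, adjusted p = 0.113). Leaving out each mouse gave 7 to 9 members and 3848 to 4956 genes. For zileuton, no alternative called a member. Against 0 genes called, 4 were called with no filter beyond 1 count, 26 with DESeq2, 4 with limma at a pseudocount of 1 and 3 at 0.1. Leaving out each mouse gave 1 to 7 members and 689 to 1909 genes at an unadjusted p under 0.05, and leaving out both libraries low in choroid plexus genes, chosen after the data were seen, gave 680 genes. Leaving out each mouse moved S100a8 from −2.06 to 0.29, and it changed sign without TBI mouse 3 (0.29), without zileuton mouse 3 (0.13), without zileuton mouse 6 (0.08) and without both libraries low in choroid plexus genes (0.02). With the replicate block 8 members (Ngp lost, adjusted p = 0.101) and 4337 genes were called after TBI, and 729 genes had an unadjusted p under 0.05 with zileuton. The numbers are not known to pair the mice. In 2018 counts near 0 in sham limit the size of the folds, not their direction, and in 2022 Ngp, Camp and Retnlg did not pass the expression filter. The causes of these shifts were not tested.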
